A study of Mus musculus with 28 samples.

Results

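The nuclear genes for subunits of the mitochondrial respiratory chain and ATP synthase were followed in tibialis anterior (TA) muscle of 28 mice from 7 groups. Members were the protein-coding genes present in both count tables whose mouse symbol begins with Ndufa, Ndufb, Ndufc, Ndufs, Ndufv, Uqcr, Cox4i, Cox5, Cox6, Cox7, Cox8 or Atp5, together with Sdha, Sdhb, Sdhc, Sdhd and Cyc1. The rule used names only and no measured value. It gave 95 of the 55359 gene identifiers: 36 of complex I, 4 of complex II, 9 of complex III, 20 of complex IV and 17 of complex V, plus 8 genes named Ndufaf, which encode assembly factors of complex I and not subunits, and Atp5s, which is no established subunit. Ndufa4 and Ndufa4l2 were counted with complex IV, where the Ndufa4 protein is placed. A total of 13 matching names were dropped, 12 of them processed pseudogenes and the other Ndufb1-ps, which the annotation holds as a long non-coding RNA. Filtering on low counts left 92 members, and not tested were Cox7b2, which reached at most 0.16 CPM in any mouse (CPM being read counts scaled to the normalised library total), Cox8c at 0 in every mouse, and a second identifier named Atp5o, also at 0.

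In the inner mitochondrial membrane, complex I takes electrons from NADH and complex II takes them from succinate, complex III passes them to cytochrome c, and complex IV hands them to oxygen. Complexes I, III and IV pump protons, and the flow of protons back through complex V, the ATP synthase, drives the formation of ATP. All subunits of complex II are nuclear, whereas the other complexes combine nuclear subunits with a few encoded by mitochondrial DNA (mtDNA), and several complex IV subunits exist as a form found in heart and skeletal muscle and a form of wide distribution.

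The study treated mouse models of centronuclear myopathy, an inherited muscle disease with misplaced nuclei, with tamoxifen, an estrogen receptor modulator, in the diet. The cohort labelled dnm2_cohort held 4 wild-type (WT) placebo mice, 4 WT mice on tamoxifen, 4 Dnm2 S619L/+ placebo mice and 4 Dnm2 S619L/+ mice on tamoxifen, the mutation being a heterozygous knock-in in the gene for the membrane-fission GTPase dynamin 2. The Bin1 cohort held 4 WT placebo mice (numbered 5 to 8), 4 Bin1 mck-/- placebo mice and 4 Bin1 mck-/- mice on tamoxifen, in which the gene for the membrane-curving protein amphiphysin 2 was deleted in muscle. It had no tamoxifen-treated WT mice among the samples used here. Mice were 8 weeks old at analysis per the study's methods. The labels give no sex. The letters mck in the Bin1 genotype label mark a deletion that the paper describes as muscle-specific, and the driver is not spelled out beyond them. Libraries of the Dnm2 cohort took 300 ng of RNA, fragmented for 2 min, and those of the Bin1 cohort 350 ng, fragmented for 8 min, so levels were compared only within a cohort.

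Reads assigned to genes ranged from 15586333 to 109710886 per mouse in the Dnm2 cohort and from 24671835 to 35136327 in the Bin1 cohort. Bin1 fell in the Bin1 mck-/- placebo mice to 56.2 ± 5.1 CPM (SD, n = 4) from 539.9 ± 15.7 in WT placebo mice (a log2 difference of -3.26 ± 0.13 SE, at an adjusted p of 7.1e-10 in edgeR's quasi-likelihood test). Dnm2 mRNA had a log2 fold change of 0.10 (adjusted p = 0.344) in Dnm2 S619L/+ placebo mice, which is no check of a knock-in of a point mutation, and in the same comparison Bin1 rose (log2 fold change 0.81, adjusted p = 0.00176). The summed level of 18 sarcomere genes, markers of striated muscle, was 105893 to 213512 CPM in all 28 libraries.

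Per kilobase of transcript, the most abundant members in the Dnm2 cohort's WT placebo mice were the alpha and beta subunits of the catalytic head of ATP synthase, Atp5b (beta) at 2047 ± 174 CPM per kb (SD, n = 4) and Atp5a1 (alpha) at 1385 ± 80.1, followed by the complex IV subunits Cox6a2 at 1152 ± 218, Cox4i1 at 1024 ± 37 and Cox6b1 at 861 ± 56.3. In WT placebo mice of the Bin1 cohort, Atp5b was also first (2385 ± 70.5 CPM per kb), and Cox6a2 (1754 ± 177) stood before Atp5a1 (1409.8 ± 58) and Cox4i1 (1372 ± 128). The range of 1 SD around Cox6a2 overlapped those of Atp5a1 and Cox4i1 in the Dnm2 cohort, while in the Bin1 cohort Cox6a2 was above Atp5a1 beyond the SD of both and Atp5a1 and Cox4i1 overlapped. Members held 2.61% ± 0.143 of gene reads in the Dnm2 cohort's WT placebo mice and 3.57% ± 0.19 in those of the Bin1 cohort.

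The muscle forms of the complex IV subunits exceeded the widely expressed forms per kilobase in every one of the 28 mice. In WT placebo mice of the Dnm2 cohort, Cox6a2 stood at 1152 ± 218 CPM per kb against 31.9 ± 4.67 for Cox6a1, and Cox7a1 at 808 ± 48 against 247 ± 9.47 for Cox7a2. Cox8b, at 688 ± 49 CPM per kb, stood above Cox8a, at 30.9 ± 3.6. Cox4i2, the form linked to low oxygen in lung, had 4.36 ± 0.699 CPM per kb beside 1024 ± 37 for Cox4i1, and Ndufa4l2 had 12.4 ± 1.82 beside 811 ± 70.2 for Ndufa4. Of the genes for the c subunit of the ATP synthase rotor, which give the same mature protein, Atp5g3 had 844 ± 75.8 CPM per kb, Atp5g1 10.6 ± 1.4 and Atp5g2 0.917 ± 0.24. Atp5g2 shares 87.4% of its 50-base words with other genes or pseudogenes, Atp5l 84.8%, Atp5h 47.9% and Uqcrb 43.4%, the highest shares among tested members. Next come Ndufs3 (39.7%), Atp5f1 (38.7%), Ndufb4 (37.0%), Ndufb6 (34.1%) and the tested Atp5o identifier (34.0%). Atp5g1 shares 11.6%, with 366 genes. Reads of these members could be lost or misplaced in counting, and their levels are uncertain.

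**Figure D1:**
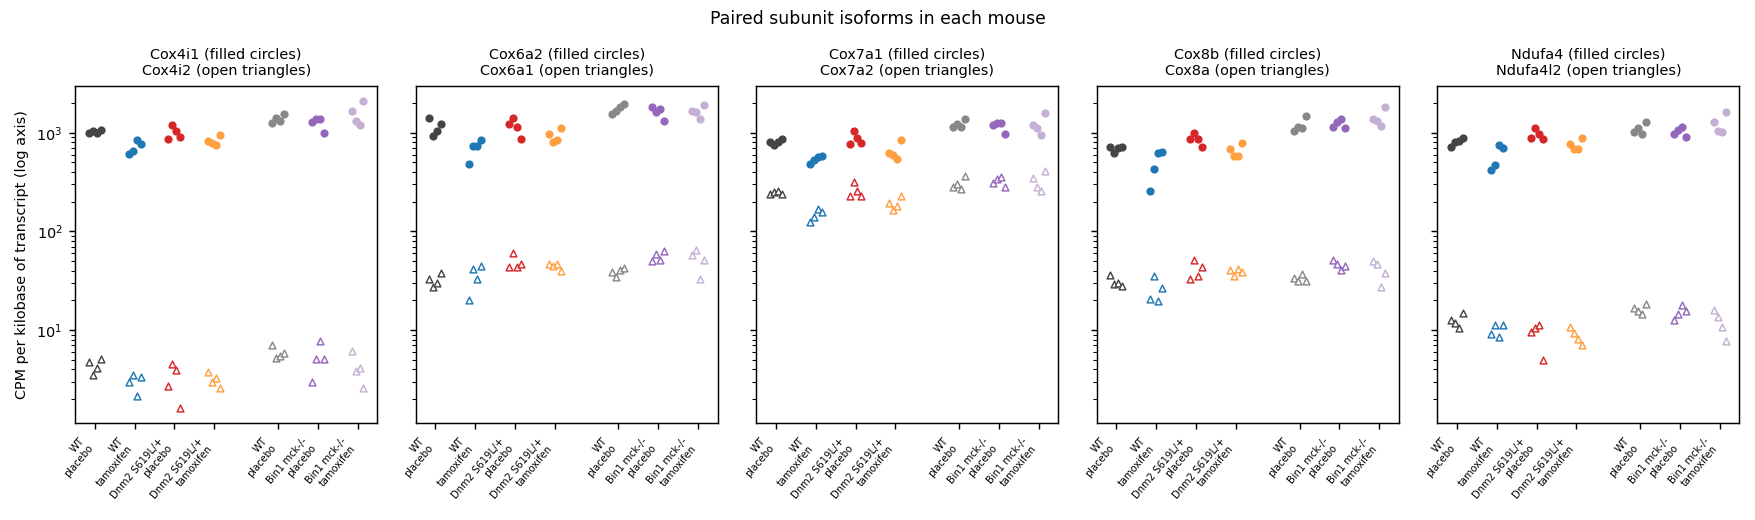
Level of both forms of 5 complex IV subunits in each of 28 mice, in CPM per kb of transcript on a log axis, by group; each point is 1 mouse. The points of Cox4i1, Cox6a2, Cox7a1, Cox8b and Ndufa4 lie above those of Cox4i2, Cox6a1, Cox7a2, Cox8a and Ndufa4l2 in every mouse.

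Promoter sequence was available for 76 members (81 windows of RefSeq, build GRCm38.p6, each 300 bases long from 250 before to 50 after the start). The palindromic core of the site for nuclear respiratory factor 1 (NRF1), whose letters stand in capitals in the Ndufa11, Cox6a1 and Atp5g2 stretches printed here, occurred on either strand in 7 of the 81 windows (8.64%) and in 0.971% of all 32851 windows. CCGGAAG, the core of the ETS family, occurred in 18 windows (22.2%, against 8.86% of all), AAGATGGC, the core of YY1, in 11 (13.6%, against 2.75%), and CAAGGTCA, the core of the estrogen-related receptors, in 4 (4.94%, against 1.56%). Of the 11 matches to AAGATGGC, 9 were on the forward strand after the start, at bases 11 to 39. The search did not mask overlaps between motifs. The stretches below show, for each complex, the member whose NRF1 core, or failing that CCGGAAG, was nearest to the start and wholly before it. Capitals mark the motif, CTTCCGG being CCGGAAG read on the other strand, and each stretch is 30 bases on the gene's strand, 5′ to 3′.
Ndufa11, chr17:56717692-56717721, plus strand, motif from base -60: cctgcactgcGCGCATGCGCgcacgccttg
Sdhd, chr9:50603877-50603906, minus strand, motif from base -46: ccgtctcctgcCTTCCGGttcacgcttcag
Uqcrh, chr4:116075062-116075091, minus strand, motif from base -10: agtatgccgcaCTTCCGGccaggtcgccgg
Cox6a1, chr5:115349101-115349130, minus strand, motif from base -162: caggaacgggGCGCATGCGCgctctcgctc
Atp5g2, chr15:102671070-102671099, minus strand, motif from base -42: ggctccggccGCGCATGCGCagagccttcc
A match describes the letters only, and no binding was measured.

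Some libraries held RNA of bone marker genes, in groups that the comparisons below set against each other. The sum of 10 osteoblast and bone matrix genes was 287, 203, 158 and 479.7 CPM in WT placebo mice 1 to 4 and 5965, 9368, 4093 and 6326 in WT tamoxifen mice. It was 585, 569, 549.8 and 430.1 CPM in Dnm2 S619L/+ placebo mice and 3083, 5345, 7328 and 536 in Dnm2 S619L/+ tamoxifen mice, the last of which stayed within the range of the placebo mice. Ibsp, a bone matrix protein, averaged 0.393 CPM in WT placebo and 375 in WT tamoxifen mice, and the bone genes Bglap2 and Mepe were at 0 in 3 of 4 WT placebo and all 4 Dnm2 S619L/+ placebo mice. In the Bin1 cohort the sum was 288 to 425 CPM in WT mice, 457, 675, 428 and 1458 in Bin1 mck-/- placebo mice, and 494, 2893, 424 and 91.6 in Bin1 mck-/- tamoxifen mice. Ibsp was at 0 in all 4 Bin1 mck-/- placebo mice and reached 186 CPM in 1 Bin1 mck-/- tamoxifen mouse.

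As a summary per mouse, the mean log2 CPM over the 92 tested members was 7.02, 7.0, 7.02 and 7.08 in WT placebo mice and 6.27, 6.48, 6.69 and 6.68 in WT tamoxifen mice. All 4 tamoxifen mice lay below all 4 placebo mice. It was 6.90, 7.23, 7.09 and 6.90 in Dnm2 S619L/+ placebo mice and 6.82, 6.68, 6.66 and 7.01 in Dnm2 S619L/+ tamoxifen mice. Here the groups overlapped, because Dnm2 S619L/+ tamoxifen mouse 4 stood above 2 placebo mice. In the Bin1 cohort the means were 7.22, 7.31, 7.22 and 7.48 in WT placebo, 7.32, 7.37, 7.42 and 7.12 in Bin1 mck-/- placebo and 7.54, 7.31, 7.18 and 7.70 in Bin1 mck-/- tamoxifen mice, and all 3 groups overlapped.

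**Figure D2:**
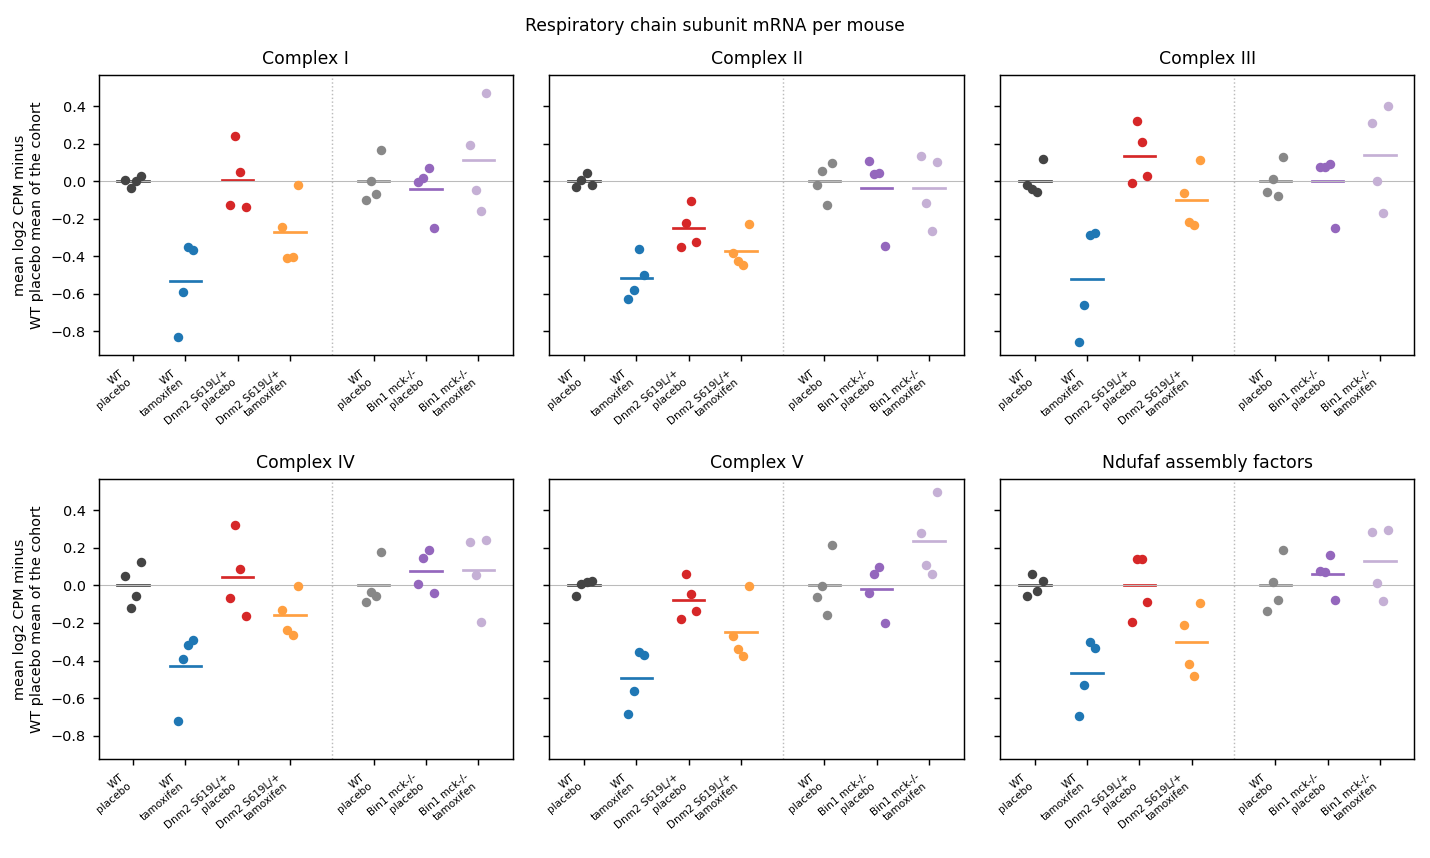
Mean log2 CPM of the members of each complex and of the Ndufaf assembly factors, minus the mean of the WT placebo mice of the same cohort, for each of 28 mice; points are mice, lines are group means, and the dotted line separates the cohorts. In every panel the WT tamoxifen mice have the lowest group mean of the Dnm2 cohort (on sarcomere scaling the fall of the members against WT placebo is smaller, with a median of -0.11), while the groups of the Bin1 cohort overlap.

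To ask what tamoxifen does in muscle without a disease mutation, WT tamoxifen mice were compared with WT placebo mice of the Dnm2 cohort. Subunit genes of all 5 complexes fell: 68 of the 92 members passed an adjusted p of 0.05 and all 68 were lower, where 27.7% of the 15439 genes tested passed (15.8% higher and 11.9% lower). The share of members lower was 73.9%. The median log2 fold change of the members was -0.52, a level 30.0% lower, against -0.04 over all genes tested, and 90 of 92 members were below 0. Against the mean of the placebo mice, 90, 89, 88 and 86 members were lower in tamoxifen mice 1 to 4, with median differences of -0.77, -0.62, -0.36 and -0.38 on the log2 scale. In bulk muscle, fewer cells of a type and less RNA per cell cannot be told apart.

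Among the 36 complex I members 30 fell, with log2 fold changes of all 36 between -0.69 and -0.16. The smallest p-values were those of Ndufa8, an accessory subunit of the membrane arm, and Ndufs8, a core subunit that carries iron-sulfur clusters. Ndufa8 had 249, 249, 250.1 and 228 CPM in WT placebo mice and 139, 173, 177 and 154 in WT tamoxifen mice, a log2 fold change of -0.60 ± 0.10 (SE, as for all fold changes given with an error), adjusted p = 0.000862. Ndufs8 had 178, 167, 175 and 174 CPM in WT placebo and 98.9, 108, 125 and 116 in WT tamoxifen mice, a log2 fold change of -0.63 ± 0.11, adjusted p = 0.00092. For neither gene did a tamoxifen mouse reach the lowest placebo mouse. The accessory subunit Ndufs6 had 132, 125, 142 and 99.4 CPM against 79.3, 94.3, 67.9 and 67.6, with a log2 fold change of -0.69 ± 0.16, adjusted p = 0.00461, and its groups also stayed apart. Most genes named here and below were picked by p or size of change, and groups that stay apart then add no support.

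All 4 members of complex II fell. Sdhb, the iron-sulfur subunit, had 644, 552, 582 and 636 CPM in WT placebo mice and 299.7, 394, 438 and 392 in WT tamoxifen mice, a log2 fold change of -0.66 ± 0.12, adjusted p = 0.00112. Sdha, the flavoprotein that oxidises succinate, had 1284, 1514, 1555 and 1314 CPM against 1066, 907, 1063 and 946, a log2 fold change of -0.51 ± 0.12, adjusted p = 0.00664. Every tamoxifen mouse was below every placebo mouse for both. The membrane anchors had smaller changes, Sdhc of -0.49 (adjusted p = 0.00115) and Sdhd of -0.39 (adjusted p = 0.00808), and Sdhd turned to 0.020 when libraries were scaled to sarcomere genes.

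In complex III, 6 of 9 members fell and all 9 lay between -0.57 and -0.41. Uqcrc1, a core protein of the matrix side, had 933, 1002, 1005 and 972 CPM in WT placebo and 573, 647, 763 and 718 in WT tamoxifen mice, a log2 fold change of -0.53 ± 0.12, adjusted p = 0.00364. Uqcrc2, its partner core protein, changed by -0.49 (adjusted p = 0.00373), and Cyc1, the cytochrome c1 that passes electrons on to cytochrome c, had 531, 551, 537 and 589 CPM against 327, 338, 458 and 419 and changed by -0.52 (adjusted p = 0.00653). The placebo and tamoxifen mice did not overlap for Uqcrc1 or Cyc1.

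Complex IV was the most mixed, with 10 of 18 tested members lower. Cox7a2, the widely expressed form of subunit VIIa, had 159, 165, 171 and 157 CPM in WT placebo and 82.5, 92.8, 111 and 104 in WT tamoxifen mice, a log2 fold change of -0.74 ± 0.13, adjusted p = 0.000944. Its muscle counterpart Cox7a1 fell too (-0.59, adjusted p = 0.00484), as did Cox7a2l, linked to supercomplexes of complexes III and IV (-0.41, adjusted p = 0.00368), Cox7b (-0.55, adjusted p = 0.00524), Cox4i1 (-0.50, adjusted p = 0.00799) and Cox6b1 (-0.61, adjusted p = 0.0104). The muscle form Cox6a2 had 964, 627, 705 and 839 CPM against 324, 494, 501 and 579.7, a log2 fold change of -0.72 ± 0.19, adjusted p = 0.0103, while its widely expressed counterpart Cox6a1 had 18.8, 15.5, 16.9 and 21.7 CPM against 11.5, 23.5, 18.6 and 25.4, with overlapping groups and a log2 fold change of 0.11 ± 0.19, adjusted p = 0.7. The remaining isoforms did not pass: Cox8b -0.51 (adjusted p = 0.087), Cox8a -0.28 (adjusted p = 0.241), Cox4i2 -0.53 (adjusted p = 0.132), Ndufa4l2 -0.30 (adjusted p = 0.291) and Cox6b2 0.52 (adjusted p = 0.241). Cox6a1 and Cox6b2 were the only members above 0, and the difference between isoforms was not tested. Ndufa4 fell (-0.47, adjusted p = 0.0449), a call lost without any 1 of WT placebo mice 2 to 4, WT tamoxifen mice 1 and 2, Dnm2 S619L/+ placebo mouse 1 and Dnm2 S619L/+ tamoxifen mice 1 to 3.

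In complex V, 12 of 16 tested members fell. Atp5j, the coupling factor in the peripheral stalk, had 291, 306, 315 and 308 CPM in WT placebo and 182, 181, 231 and 221 in WT tamoxifen mice, a log2 fold change of -0.58 ± 0.12, adjusted p = 0.00223. Atp5c1, the gamma subunit of the rotating shaft, had 861, 961, 974 and 896 CPM against 581, 631, 729 and 631, a log2 fold change of -0.52 ± 0.11, adjusted p = 0.00319. Groups did not overlap for either gene. Of the c-subunit genes, Atp5g1 changed by -0.56 (adjusted p = 0.00748) and Atp5g3 by -0.51 (adjusted p = 0.0178), a call lost without WT tamoxifen mouse 2, and Atp5g2 had -0.32 (adjusted p = 0.609). Of the 8 complex I assembly factors 5 fell (median -0.43), and Atp5s fell by 0.71 on the log2 scale (adjusted p = 0.00124).

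**Figure D3:**
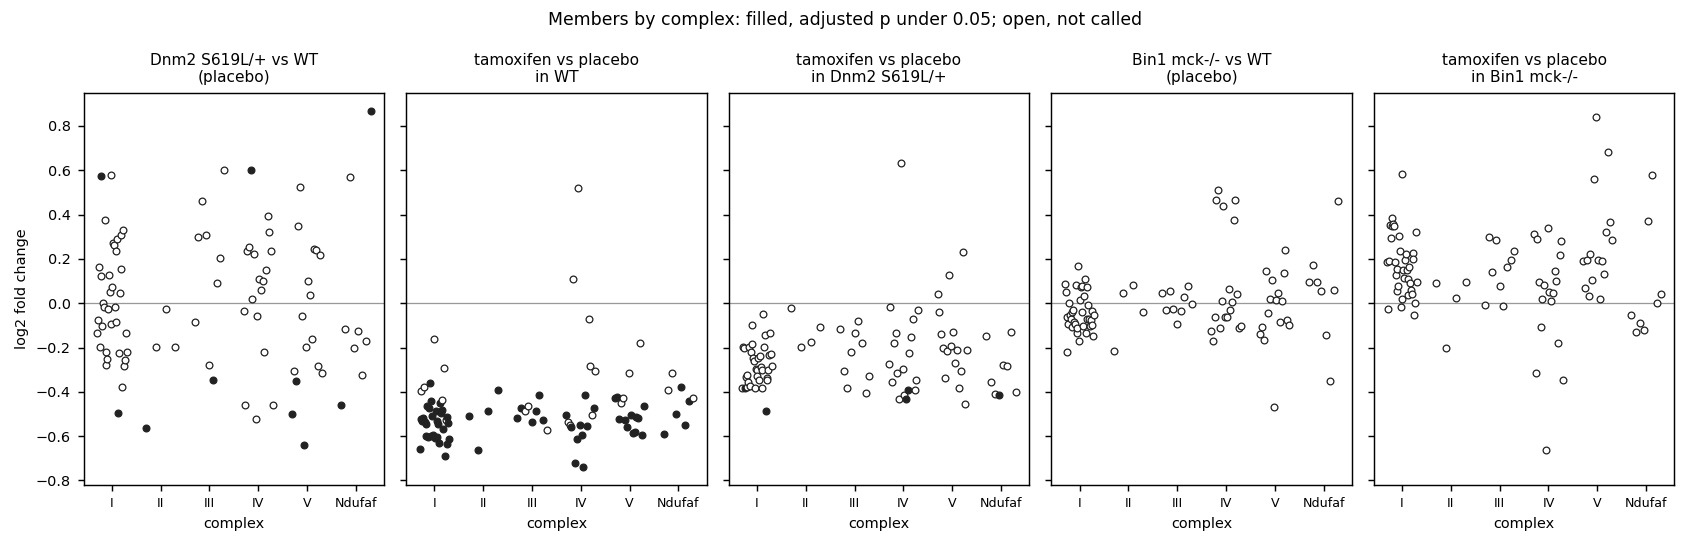
Log2 fold change of each tested member in 5 comparisons, by complex; each point is 1 gene and filled points passed an adjusted p of 0.05. For tamoxifen in WT mice 90 of 92 points lie below 0 (median -0.52, or -0.11 when libraries are scaled to sarcomere genes), for Dnm2 S619L/+ against WT and for Bin1 mck-/- against WT the medians are -0.02 and -0.03 (0.13 and 0.26 on that scaling), and for tamoxifen in Bin1 mck-/- mice the median is 0.14 (-0.24 on that scaling).

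How far below 0 the members lay depended on the reference. Sarcomere genes were also lower in WT tamoxifen mice, at 112986 to 139077 CPM in sum against 152157 to 173292 in WT placebo mice, and 4 of 18 fell. Scaling the libraries to these genes moved the median of all genes to 0.37 and that of the members to -0.11, and 1 member, Cox7a2, was then called, lower. Relative to the median of all genes, the members stood at -0.48 on both scalings. Scaling shifts all genes of a library alike, so this distance was bound to stay nearly the same and is no further test. Bone markers rose in the same mice (8 of 9 tested, median log2 fold change 4.63), with cartilage genes (4 of 6; sums of 285 to 606 CPM against 6.3 to 20.8), tendon genes (5 of 6; 718 to 1662 CPM against 47.5 to 259) and macrophage and leukocyte genes (7 of 8; 157 to 297 CPM against 47.8 to 78.5). Their part in the fall of the members was not tested. Within the WT tamoxifen mice 1 to 4, bone sums of 5965, 9368, 4093 and 6326 CPM stood beside member means of 6.27, 6.48, 6.69 and 6.68, and in Dnm2 S619L/+ tamoxifen mice 1 to 4, 3083, 5345, 7328 and 536 CPM stood beside 6.82, 6.68, 6.66 and 7.01. The mouse with the lowest bone sum had the highest member mean in both groups. Among the Dnm2 S619L/+ tamoxifen mice the order was inverse throughout. Among the WT tamoxifen mice it was not, as mouse 2 had the highest sum with a mean of 6.48 and mouse 1 the lowest mean, 6.27. A relation within 4 mice was not tested.

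**Figure D4:**
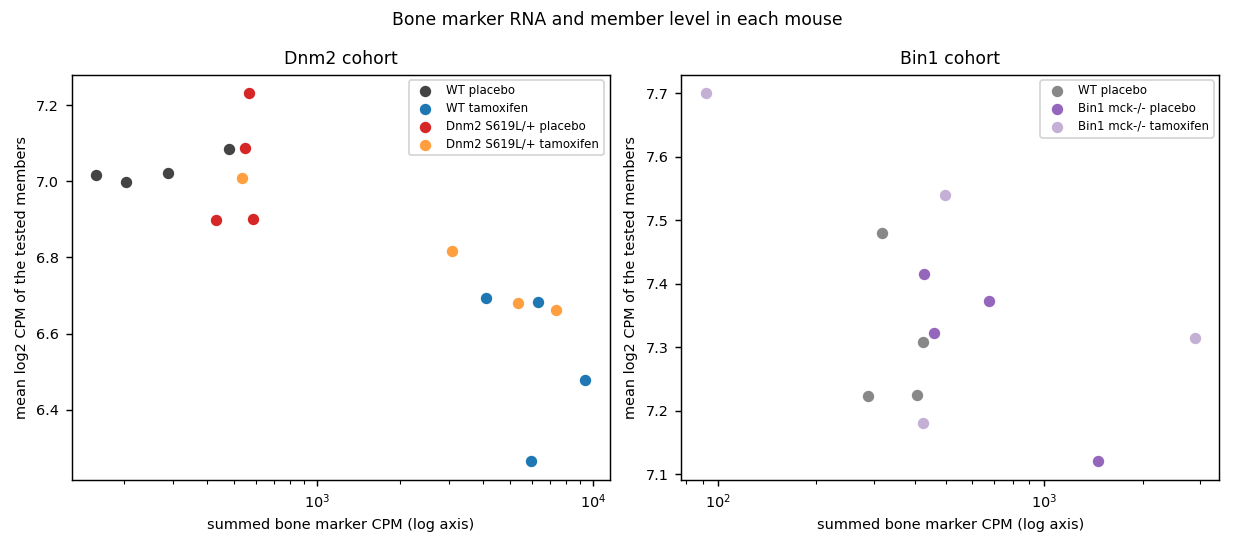
Mean log2 CPM of the tested members against the summed CPM of 10 bone marker genes (log axis) for each mouse, with 1 panel per cohort; colours give the groups. WT tamoxifen mice lie at 4093 to 9368 CPM of bone markers and 6.27 to 6.69, WT placebo mice at 158 to 479.7 CPM and 7.0 to 7.08, and Dnm2 S619L/+ tamoxifen mouse 4 lies at 536 CPM and 7.01.

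Other parts of oxidative metabolism were also lower in WT tamoxifen mice. Enzymes of the tricarboxylic acid (TCA) cycle and pyruvate dehydrogenase fell in 16 of 18 cases (median -0.48), among them Idh3b, a subunit of the NAD-dependent isocitrate dehydrogenase, at -0.56 (adjusted p = 0.00104). Carriers and electron-transfer genes fell in 9 of 13 (median -0.47), with Ckmt2, the mitochondrial creatine kinase of muscle, at -1.10 (adjusted p = 0.00025), and assembly factors of all complexes in 27 of 44 (median -0.40). The 44 assembly factors include the 8 Ndufaf members already counted above, so that list is not separate from the members. Subunits encoded by mtDNA fell in 6 of the 8 tested (median -0.66, mt-Nd4 at -0.66, adjusted p = 0.00134), and 4 of 14 regulators of oxidative genes fell, with Esrrb at -1.11 (adjusted p = 0.00136), Perm1 at -0.90 (adjusted p = 0.00299) and Esrra at -0.43 (adjusted p = 0.00956).

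To ask what the Dnm2 mutation changed, Dnm2 S619L/+ placebo mice were compared with the same WT placebo mice. Few members changed, and in both directions: 10 of 92 passed, 3 higher and 7 lower, where 21.9% of genes tested passed (12.1% higher and 9.81% lower). The members' median was -0.02 against 0.02 over all genes. Scaling libraries to sarcomere genes turned it to 0.13 and moved the median of all genes to 0.19. On that scaling 17 members were higher and 0 lower, and the share of all genes called on it is not given here. The 18 sarcomere genes themselves had a median of -0.21 before it, with 1 higher and 1 lower. Against the WT mean, 63, 29, 38 and 58 members were lower in Dnm2 S619L/+ placebo mice 1 to 4.

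The members that fell included catalytic and core subunits. Atp5a1, the alpha subunit of ATP synthase, had 3363, 3657, 3807 and 3426 CPM in WT placebo and 2317, 2466, 2962 and 2343 in Dnm2 S619L/+ placebo mice, a log2 fold change of -0.50 ± 0.10, adjusted p = 0.00358. Sdha had 1284, 1514, 1555 and 1314 CPM against 920.4, 861, 1175 and 883, a log2 fold change of -0.56 ± 0.12, adjusted p = 0.00488. Ndufs1, the largest core subunit of complex I, had 628, 758, 783 and 699.7 CPM against 479, 439, 636 and 483, a log2 fold change of -0.49 ± 0.12, adjusted p = 0.0105. For Atp5a1 and Sdha every Dnm2 S619L/+ mouse lay below every WT mouse, whereas for Ndufs1 the third Dnm2 S619L/+ mouse exceeded the first WT mouse. Atp5g1 had 32.7, 28.4, 29.2 and 23.6 CPM against 17.3, 16.8, 20.6 and 18.4, a log2 fold change of -0.64 ± 0.14, adjusted p = 0.00464, with no overlap, and the other genes that fell were Uqcrc2 (-0.35, adjusted p = 0.0305), Atp5c1 (-0.35, adjusted p = 0.0343) and the assembly factor Ndufaf1 (-0.46, adjusted p = 0.0071). Atp5c1 was named after its values were seen, to complete the 7. All 7 are called members, so groups that stay apart add no support. The other complex II members had -0.20 (adjusted p = 0.245) for Sdhb, -0.03 (adjusted p = 0.862) for Sdhc and -0.20 (adjusted p = 0.157) for Sdhd, none of them past the threshold.

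The 3 members that rose encode an assembly factor and small subunits. Ndufaf8, an assembly factor of complex I, had 6.51, 6.31, 5.69 and 7.93 CPM in WT placebo and 12, 13.1, 10.8 and 12.9 in Dnm2 S619L/+ placebo mice, a log2 fold change of 0.87 ± 0.24, adjusted p = 0.0177. Cox6a1 had 18.8, 15.5, 16.9 and 21.7 CPM against 25, 34.4, 24.9 and 26.9, a log2 fold change of 0.60 ± 0.19, adjusted p = 0.0357. Ndufa2, an accessory complex I subunit, had 108, 99.1, 91.5 and 117 CPM against 146, 193, 140.5 and 137, a log2 fold change of 0.57 ± 0.19, adjusted p = 0.0386. For all 3 genes every Dnm2 S619L/+ mouse lay above every WT mouse, but they were named because they passed, so this separation adds no support. The muscle form Cox6a2 had a log2 fold change of 0.02 (adjusted p = 0.96), Uqcrq, a small complex III subunit, of 0.60 (adjusted p = 0.0728) and Cox8a of 0.40 (adjusted p = 0.115). Cox6a1 lost its call without WT placebo mouse 1, 2 or 3 or Dnm2 S619L/+ placebo mouse 2 or 4, Ndufa2 without WT placebo mouse 1, 2 or 3, Dnm2 S619L/+ placebo mouse 1 or 2 or Dnm2 S619L/+ tamoxifen mouse 1, and Uqcrc2 without WT placebo mouse 2 or 3 or Dnm2 S619L/+ placebo mouse 1, 2 or 4. In all, 6 members passed without WT placebo mouse 2 or 3, against 13 without WT tamoxifen mouse 1.

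Direction in this comparison moved with transcript length. Over the 92 members, whose median transcript length was 751.25 bases against 2574.25 over all genes, Spearman's rho between log2 fold change and length was -0.51 (-0.21 over all genes; across genes, which share libraries and are no independent replicates). The 46 shorter members had a median of 0.18, with 3 higher and 0 lower, and the 46 longer members -0.18, with 7 lower and 0 higher. For tamoxifen in WT the same shorter and longer members had medians of -0.52 and -0.51, with 28 and 40 lower, and rho was 0.03. After each library's trend with length was removed, a step chosen after seeing these data, 31 members passed in Dnm2 S619L/+ mice, 1 higher and 30 lower, at a median of -0.20 against 0.02 over all genes, and for tamoxifen in WT 58 passed, at a median of -0.36 against -0.01. The share of all genes passing after this step is not given here, so these counts are not set against it.

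**Figure D5:**
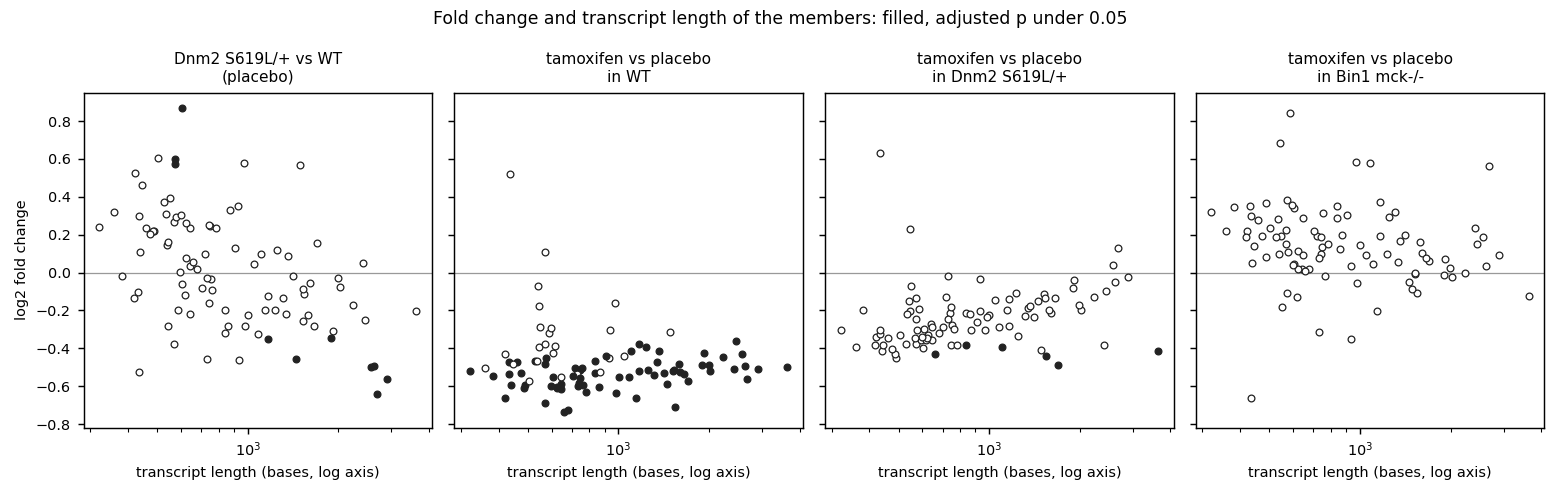
Log2 fold change of each tested member against the length of its transcript (log axis) in 4 comparisons; each point is 1 gene and filled points passed an adjusted p of 0.05. For Dnm2 S619L/+ against WT rho is -0.51 and shorter members lie above longer ones, for tamoxifen in WT rho is 0.03 and their medians are -0.52 and -0.51 (-0.11 over all members on sarcomere scaling), for tamoxifen in Dnm2 S619L/+ mice rho is 0.38, and for tamoxifen in Bin1 mck-/- mice it is -0.28.

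Beside the members, mtDNA-encoded subunits fell in 7 of 8 tested cases in Dnm2 S619L/+ placebo mice (median -0.91, mt-Nd5 at -1.28, adjusted p = 0.000177) and TCA cycle genes in 12 of 18 (median -0.39, Idh2 at -0.67, adjusted p = 0.00938). Carriers and electron-transfer genes fell in 5 of 13 (median -0.30), among them Etfdh, which feeds electrons from fatty acid oxidation to ubiquinone (-0.74, adjusted p = 9.95e-05). Of the 14 regulators 3 fell, Esrrb (-1.33, adjusted p = 0.000475), Perm1 (-0.95, adjusted p = 0.00272) and Ppargc1a (-1.59, adjusted p = 0.0279). Assembly factors, a list that includes the 8 Ndufaf members, moved both ways, with 8 of 44 higher and 7 lower (median 0.02), such as the copper chaperone Cox17 at 0.66 (adjusted p = 0.00385) and Coa7 at -0.66 (adjusted p = 0.000951).

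The next comparison asks what tamoxifen did in mice with the Dnm2 mutation, against Dnm2 S619L/+ placebo mice. Of the 92 members 6 fell and 0 rose, where 8.27% of genes tested passed (5.22% higher and 3.05% lower). The median was -0.27 against -0.03 over all genes, and 88 members were below 0. On sarcomere scaling the median was -0.08 against 0.14 over all genes, with 0 called. The 18 sarcomere genes themselves had a median of -0.21 in the main fit, with 0 called in edgeR. At an unadjusted p under 0.05 were 4 of them, and 3927 of 15439 genes tested. With the correction for transcript length it was -0.064 against -0.01, so that the distance of the members from all genes went from -0.23 to -0.05, and 2 were called. Dnm2 S619L/+ tamoxifen mice 1 to 4 had 87, 88, 87 and 60 members below the placebo mean, with medians of -0.23, -0.40, -0.40 and -0.06.

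Of the 6 members, Cox7a2l had 48, 63.9, 50.4 and 49.1 CPM in Dnm2 S619L/+ placebo and 41.9, 38.5, 39 and 41.5 in Dnm2 S619L/+ tamoxifen mice, a log2 fold change of -0.39 ± 0.09, adjusted p = 0.0168, with no overlap. Ndufs4, an accessory subunit of complex I known from Leigh syndrome, had 186, 258, 216 and 196 CPM against 155, 139, 139 and 177, a log2 fold change of -0.49 ± 0.13, adjusted p = 0.0351, also with no overlap. Cox7a2 had 150.3, 210.2, 167 and 150.5 CPM against 127, 108, 118 and 150.2, a log2 fold change of -0.43 ± 0.13, adjusted p = 0.049, and here the highest treated mouse stood just below the lowest placebo mouse. The others were Ndufa12 (-0.38, adjusted p = 0.047), Atp5s (-0.44, adjusted p = 0.0483) and the assembly factor Ndufaf4 (-0.41, adjusted p = 0.0486). The complex II genes had -0.02 (adjusted p = 0.933) for Sdha, -0.20 (adjusted p = 0.315) for Sdhb, -0.17 (adjusted p = 0.227) for Sdhc and -0.11 (adjusted p = 0.531) for Sdhd.

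This count rested on single mice. It was 17 without Dnm2 S619L/+ tamoxifen mouse 4, the mouse without a raised bone sum, 0 without Dnm2 S619L/+ tamoxifen mouse 2 or 3, and 1 to 3 without any other mouse whose omission changed it by over 1.5 times: 1 without Dnm2 S619L/+ placebo mouse 2 or 3 or tamoxifen mouse 1, 2 without any 1 of the WT placebo mice or WT tamoxifen mouse 3, and 3 without WT tamoxifen mouse 2 or 4 or Dnm2 S619L/+ placebo mouse 4. Cox7a2l lost its call without Dnm2 S619L/+ tamoxifen mouse 2 or 3, Ndufs4 without any of Dnm2 S619L/+ placebo mice 2 and 3 and tamoxifen mice 1 to 3, and Ndufa12, Ndufaf4, Cox7a2 and Atp5s in most omissions. Bone genes rose in this comparison too (8 of 9, median 4.95), and their part was not tested. TCA cycle, mtDNA-encoded and regulator genes had 0 called in edgeR of 18, 8 and 14, with medians of -0.09, -0.07 and 0.00. At an unadjusted p under 0.05 were 1, 1 and 0 of them, and 3927 of 15439 genes tested. Assembly factors, the 8 Ndufaf members among them, fell in 6 of 44 (median -0.29, Cox17 at -0.60, adjusted p = 0.0178), as did 1 of 13 carriers.

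Whether the response to tamoxifen differed between genotypes was tested as an interaction. In edgeR 0 of 92 members passed, where 0.259% of genes tested passed (0.0324% higher and 0.227% lower). An unadjusted p under 0.05 was met by 17 of 92 members and by 2089 of 15439 genes tested. DESeq2 called 1 member, and its share of all genes is not given here. The median difference, tamoxifen effect in Dnm2 S619L/+ minus that in WT mice, was 0.25 against -0.01 over all genes (0.04 against -0.24 on sarcomere scaling), and 87 members were above 0. Atp5g1 had the largest difference, 0.69 ± 0.19, adjusted p = 0.164, followed by Cox4i2 at 0.52 ± 0.37, adjusted p = 0.581, Sdha at 0.49 ± 0.17, adjusted p = 0.259 and Atp5a1 at 0.47 ± 0.15, adjusted p = 0.196. Sdha had 920.4, 861, 1175 and 883 CPM in Dnm2 S619L/+ placebo mice and 869, 904, 895 and 1109.6 in Dnm2 S619L/+ tamoxifen mice, groups that overlapped, beside the separated WT groups given above.

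Set against WT placebo mice, the treated Dnm2 S619L/+ mice had 36 members lower and 0 higher, where 28.9% of genes tested passed (15.8% higher and 13.1% lower). The median was -0.28 against 0.01 over all genes, and on sarcomere scaling it turned to 0.06 against 0.36, with 8 members higher and 0 lower. The share of all genes called on that scaling is not given here. Before it, the 18 sarcomere genes themselves had a median of -0.46, with 9 lower and 0 higher. The fall was spread over complex I (15 of 36), complex II (3 of 4), complex III (2 of 9), complex IV (4 of 18), complex V (6 of 16) and the Ndufaf assembly factors (5 of 8). Ndufs6 had 132, 125, 142 and 99.4 CPM in WT placebo and 73.1, 71.2, 64.6 and 92.7 in Dnm2 S619L/+ tamoxifen mice, a log2 fold change of -0.73 ± 0.16, adjusted p = 0.0034, and Sdha changed by -0.59 (adjusted p = 0.00288), in both cases without overlap. Others with large falls were Ndufaf4 (-0.62, adjusted p = 0.0022), Ndufaf6 (-0.61, adjusted p = 0.00921), Ndufaf1 (-0.60, adjusted p = 0.000999) and Ndufa12 (-0.58, adjusted p = 0.00184). Atp5a1, at -0.46 (adjusted p = 0.00456), Atp5c1, at -0.49 (adjusted p = 0.00478), and Uqcrc2, at -0.42 (adjusted p = 0.00823), were lower as in untreated Dnm2 S619L/+ mice, and Cox7a2l, at -0.29 (adjusted p = 0.0235), and Sdhd, at -0.30 (adjusted p = 0.0293), turned to 0.060 and 0.047 on sarcomere scaling.

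The count was 19 without WT placebo mouse 3, Dnm2 S619L/+ tamoxifen mouse 2 or Dnm2 S619L/+ tamoxifen mouse 3, 21 without WT placebo mouse 2, and 45 without Dnm2 S619L/+ tamoxifen mouse 4. Sdhb lost its call without WT placebo mouse 1 or Dnm2 S619L/+ tamoxifen mouse 2 or 3, and Sdhd and Cox7a2l lost theirs without WT placebo mouse 2 or 3 or Dnm2 S619L/+ tamoxifen mouse 2 or 3, Sdhd also without tamoxifen mouse 1. The comparisons of WT tamoxifen, Dnm2 S619L/+ placebo and Dnm2 S619L/+ tamoxifen mice share the same 4 WT placebo mice, so their values for a gene are not independent. Side by side, Sdhb had -0.66, -0.20 and -0.39 in these comparisons, Sdha -0.51, -0.56 and -0.59, and Uqcrc2 -0.49, -0.35 and -0.42.

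In the Bin1 cohort, in the fit of all its groups, edgeR called no change of a member. For Bin1 mck-/- placebo against WT placebo mice, 0 of 92 members passed in edgeR. Of all genes tested 2.61% passed there (1.99% higher and 0.627% lower). An unadjusted p under 0.05 was met by 5 of 92 members and by 2995 of 14841 genes tested. DESeq2 called 0 members, but a fit restricted to these 8 mice called 4, all higher, and sarcomere scaling called 2, both higher. The shares of all genes under these other settings are not given here. The median was -0.03 against 0.01 over all genes, with 40 members above and 52 below 0, and 0.26 against 0.30 on sarcomere scaling. The 18 sarcomere genes themselves had a median of -0.26 in the main fit, with 2 lower and 0 higher, so that reference moved. Cox6a1, with the smallest p of complex IV, had 22.2, 19.6, 23.3 and 24 CPM in WT placebo and 28.4, 33.3, 29.1 and 36.1 in Bin1 mck-/- placebo mice, a log2 fold change of 0.51 ± 0.16, adjusted p = 0.102. Cox5b had 94.4, 87.8, 114 and 105 CPM against 149, 142, 145 and 118, a log2 fold change of 0.46 ± 0.15, adjusted p = 0.106. All 4 knockout mice lay above all 4 WT mice for both genes, but they were picked for the smallest p of complex IV, so this separation adds no support. Sdha had -0.22 (adjusted p = 0.397), Sdhb 0.05 (adjusted p = 0.891), Cyc1 0.04 (adjusted p = 0.901) and Cox6a2 -0.11 (adjusted p = 0.715).

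Bin1 mck-/- placebo mouse 4 was low for several complexes. It had 79 of 92 members below the WT mean (median -0.22), against 47, 37 and 14 in placebo mice 1 to 3, and Sdha was 1273, 1132, 1224 and 853 CPM in the 4 mice. Its summed tendon markers were 1047 CPM against 105 to 257 in the other 3, and its bone-list sum of 1458 CPM was nearly all Col1a1 (1429), with Ibsp at 0. Without it and Bin1 mck-/- tamoxifen mouse 2, a choice made after seeing these data, 0 members passed and the median was 0.05. The count was 2 without Bin1 mck-/- tamoxifen mouse 3, which shares in the estimate of spread.

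Tamoxifen in Bin1 mck-/- mice gave 0 called members in edgeR, where 3.13% of genes tested passed (1.52% higher and 1.61% lower). An unadjusted p under 0.05 was met by 9 of 92 members and by 3068 of 14841 genes tested. DESeq2 called 3 members, and its share of all genes is not given here. The median was 0.14 against -0.00 over all genes, with 76 members above 0, and it turned to -0.24 against -0.37 on sarcomere scaling. The 18 sarcomere genes themselves had a median of 0.45 in the main fit, with 2 higher and 0 lower, so that reference moved. Relative to the median of all genes the members stood at 0.14 and 0.12 on these scalings, a distance that scaling by itself hardly alters. It was 0.03 with the correction for transcript length (median 0.03 against 0.01). Complex V had all 16 members above 0 (median 0.19) and complex I 33 of 36. The mice differed: in Bin1 mck-/- tamoxifen mice 1 and 4, 85 members each were above the placebo mean (medians 0.23 and 0.44), and in mice 2 and 3, 53 and 75 were below it (medians -0.01 and -0.16). Without mouse 4 the median was 0.02.

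Atp5g1 had 25, 29.6, 27.8 and 25.7 CPM in Bin1 mck-/- placebo and 25.8, 52, 41.7 and 40.1 in Bin1 mck-/- tamoxifen mice, a log2 fold change of 0.56 ± 0.17, adjusted p = 0.0789. Atp5l, a membrane subunit of ATP synthase with uncertain counts, had 4.88, 6.82, 5.41 and 4.02 CPM against 6.97, 6.92, 7.06 and 13.1, a log2 fold change of 0.68 ± 0.22, adjusted p = 0.0995. In each gene 3 of 4 treated mice or more lay above all placebo mice, but both were picked for the smallest p of complex V, so this adds no support. Sdha had 0.09 (adjusted p = 0.742), Sdhb -0.20 (adjusted p = 0.431), Ndufb4, an accessory complex I subunit with uncertain counts, 0.58 (adjusted p = 0.117) and Cox6a1 -0.11 (adjusted p = 0.75). Against WT placebo mice the treated knockout mice had 0 called members in edgeR, where 0.849% of genes tested passed. An unadjusted p under 0.05 was met by 7 of 92 members and by 2205 of 14841 genes tested. DESeq2 called 3 members, and its share of all genes is not given here. The median was 0.15 against 0.03 over all genes (0.06 against -0.05 on sarcomere scaling). With the correction for transcript length it was 0.015 against 0.03, so that the members no longer stood above all genes. Here Atp5l had 0.92 ± 0.22, adjusted p = 0.0714, and Atp5g1 0.67 ± 0.17, adjusted p = 0.0854. The count was 4 without Bin1 mck-/- tamoxifen mouse 3 and 1 without tamoxifen mouse 1, and for tamoxifen in Bin1 mck-/- mice it was 2 without tamoxifen mouse 2 and 1 without tamoxifen mouse 1.

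Other oxidative lists of the Bin1 cohort had few calls. In Bin1 mck-/- placebo mice 0 genes passed of 7 tested mtDNA-encoded subunits (median 0.08), 44 assembly factors (0.06), 18 TCA cycle genes (-0.10), 13 carriers (0.02) and 14 regulators (0.05) in edgeR, with 0, 5, 1, 2 and 1 at an unadjusted p under 0.05. In that comparison 2995 of 14841 genes tested met that p, and 3068 did with tamoxifen. The 44 assembly factors include the 8 Ndufaf members. With tamoxifen 0 passed in the first 4 lists (medians 0.06, 0.02, 0.01 and -0.00, with 0, 4, 0 and 4 at an unadjusted p under 0.05), whereas among the regulators 3 fell, Esrrg (-0.96, adjusted p = 0.00683), Esrrb (-1.32, adjusted p = 0.02) and Perm1 (-0.60, adjusted p = 0.0443), and Tfam, which packages mtDNA and helps to start its transcription, rose (0.60, adjusted p = 0.0207).

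Differences between the models were tested in a fit of all 28 mice. For the disease effect, Dnm2 S619L/+ minus Bin1 mck-/-, 0 members passed in edgeR, where 0.312% of genes tested passed. An unadjusted p under 0.05 was met by 5 of 92 members and by 2166 of 16036 genes tested, and DESeq2 called 0 members. The median was 0.01 (-0.13 on sarcomere scaling, where that of all genes was -0.11, and -0.17 against 0.01 with the correction for transcript length). The count was 1 without Dnm2 S619L/+ placebo mouse 3. For the tamoxifen effect in diseased mice, 0 members passed in edgeR, where 1.71% of genes tested passed (1.05% higher and 0.655% lower). In that fit 36 members had an unadjusted p under 0.05, and DESeq2 called 8, all lower in the Dnm2 cohort. The shares of all genes at that p and in DESeq2 are not given here, so neither count is set against one. The median difference was -0.37 against 0.01 over all genes, with 86 members below 0, including all 36 of complex I, all 9 of complex III and all 16 of complex V, and on sarcomere scaling it turned to 0.16 against 0.52. With the correction for transcript length it was -0.096 against -0.01, and the distance of the members from all genes went from -0.37 to -0.09. Ndufa12, an accessory complex I subunit, had the smallest adjusted p of complex I (-0.71 ± 0.19, adjusted p = 0.0505), and in complex V Atp5mpl had -0.79 ± 0.23, adjusted p = 0.0576. The count was 16 without Dnm2 S619L/+ tamoxifen mouse 4, 15 without Bin1 mck-/- tamoxifen mouse 2 and 2 without Dnm2 S619L/+ placebo mouse 1. The cohorts also differ in library making, which cannot be told apart from the models.

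A pair of genes that the rule left out are known subunits. Usmg5, which RefSeq names Atp5md, fell with tamoxifen in WT mice (log2 fold change -0.76 ± 0.14 SE, adjusted p = 0.00131), and Ndufb1-ps fell there as well (-0.47 ± 0.16, adjusted p = 0.0424). Neither passed in Dnm2 S619L/+ placebo mice (-0.02 and 0.21) or with tamoxifen in Bin1 mck-/- mice (0.13 and 0.46).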

How the data were processed

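RNA-seq of polyadenylated RNA, strand-specific, was used from TA muscle of 28 mice in 7 groups. Values as deposited by the authors were raw integer counts, 1 row per Ensembl gene. The submitters' processing notes name bcl2fastq 2.20.0.422, cutadapt 1.10, Bowtie 1.2.2, STAR 2.5.3, HTSeq 0.6.1p1 and the build mm39, with no roles given. In the Bin1 cohort lines that name no gene held 22.0% to 30.8% of counts and were left out. Identifiers were named with GENCODE M21 (52083 of 55359 in the Bin1 cohort's table, 52135 of 55416 in the Dnm2 cohort's). Promoters came from RefSeq on GRCm38.p6, a build other than that of the counts, and no coordinates were joined.

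Each cohort was fitted by itself, all its groups together, with edgeR 4.0.16 in R 4.3.3 (TMM, filterByExpr, robust quasi-likelihood test, prior count 2), and differences between cohorts were fitted over all 28 mice. Benjamini-Hochberg adjustment ran over all genes tested (15439, 14841 and 16036), at a threshold of 0.05. CPM were scaled by the TMM library sizes. Errors are SD over 4 mice or SE of the log2 fold change. The p-values come from tests that set a difference against the spread between mice, estimated over all groups of the fit. Gene reads per mouse had a median of 28832003 in the Dnm2 cohort and 30657895.5 in the Bin1 cohort. Tests were checked on simulated counts. The members and lists were chosen with earlier results of these data known. Named were, per comparison and complex, the 2 members with the smallest p, the 5 largest rises and falls among called members, and always complex II, Cyc1 and the isoform families. For genes picked by p or size of change, groups that do not overlap are no further evidence. The share of all genes with such groups is not given. Replicate numbers did not pair the mice: over 28 same-numbered pairs the correlation of deviations ran from -0.44 to 0.49, and 10 exceeded 0.1. Alternatives were DESeq2 1.42.0, RLE size factors, no filter, only the groups compared, scaling to 18 sarcomere genes, a replicate block and leaving out each mouse. A correction for transcript length and the omission of 2 Bin1 mck-/- libraries were added after seeing the data.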

Additional observations from a re-analysis of the deposited data

Results flagged for a closer look

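Among 168 groups of a summary measure, 13 (7.74%) held a mouse that stood apart from the other 3, and chance alone gives about 1 in 20. Among 644 groups of a single member there were 39 (6.06%), 13 of them for Bin1 mck-/- placebo mouse 4.

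Bin1 mck-/- placebo mouse 4 stood apart in its mean log2 CPM of complex II (8.92, the others 9.30 to 9.37) and complex III (8.48, the others 8.80 to 8.81). Its assembly factors summed to 1616 CPM (others 1839 to 1885), its carriers and electron-transfer genes to 8948 CPM (others 11923 to 12488), its cartilage genes to 51.7 CPM (others 6.17 to 9.14) and its tendon genes to 1047 CPM (others 105 to 257). Bin1 mck-/- tamoxifen mouse 2 stood apart in bone genes (2893 CPM, others 91.6 to 494) and cartilage genes (177 CPM, others 7.23 to 19.9).

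In the Dnm2 cohort, tamoxifen-treated Dnm2 S619L/+ mouse 4 had 13867 CPM of TCA cycle genes (others 9662 to 9861) and mouse 2 had 16.5% of reads from mtDNA genes (others 14.7 to 14.96). WT placebo mouse 1 had 1628 CPM of assembly factors (others 1763 to 1784) and WT placebo mouse 4 had 259 CPM of tendon genes (others 47.5 to 73.3). In the Bin1 cohort WT placebo mouse 7 had 7.86% of reads from mtDNA genes (others 9.44 to 9.60).

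In edgeR with the settings of the report, the genes whose effects differed between groups by a test of the difference were outside the members, while other settings called members too: DESeq2 called 1 for the interaction and 8 for the difference between models in tamoxifen effect. The share of all genes that DESeq2 called is not given here. The interaction of genotype and tamoxifen called 1 of 13 carriers, Etfdh, and 1 of 6 tendon genes. The disease effect differed between the models in 5 of 8 tested mtDNA-encoded subunits, lower in the Dnm2 cohort, and in 1 of 13 carriers, Etfdh. The tamoxifen effect in diseased mice differed in 3 of 12 fast fiber genes and 3 of 18 sarcomere genes, lower in the Dnm2 cohort, and in 1 of 9 bone genes, higher there. The fast fiber and sarcomere lists share genes, such as Actn3 and Mybpc2, so their counts are not separate.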

How the results depend on the processing

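Members called under other settings, beside the counts in the report, were as follows. The share of all genes called under each setting is not given, so these counts show the settings' effect and nothing particular to the members. Scaling to sarcomere genes gave 17 for Dnm2 S619L/+ against WT (17 higher), 1 for tamoxifen in WT, 0 for tamoxifen in Dnm2 S619L/+, 8 for treated Dnm2 S619L/+ against WT (8 higher), 2 for Bin1 mck-/- against WT (2 higher), 1 for tamoxifen in Bin1 mck-/- (1 lower) and 1 for the difference between models in tamoxifen effect (1 higher). On it Sdhd turned to 0.020 for tamoxifen in WT and to 0.047 for treated Dnm2 S619L/+ against WT, where Cox7a2l turned to 0.060. DESeq2 gave 10 for tamoxifen in Dnm2 S619L/+, 1 for the interaction, 3 for tamoxifen in Bin1 mck-/-, 3 for treated Bin1 mck-/- against WT and 8 for the difference between models in tamoxifen effect, where RLE size factors gave 1. Without a filter the counts were 2 for tamoxifen in Dnm2 S619L/+, 1 for tamoxifen in Bin1 mck-/- and 3 for treated Bin1 mck-/-. Fitting only the groups compared gave 0 for tamoxifen in Dnm2 S619L/+ and 4 for Bin1 mck-/- against WT (4 higher). With length correction, chosen after seeing the data, 31 were called for Dnm2 S619L/+ against WT and 2 for tamoxifen in Dnm2 S619L/+. Leaving out both Bin1 mck-/- libraries with high bone-list sums, also chosen after seeing the data, gave 1 for treated Bin1 mck-/-. The causes were not tested.

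The numbers do not pair the mice, and the fit with the replicate block gave 1 called member for tamoxifen in Dnm2 S619L/+, 10 for Dnm2 S619L/+ against WT, 70 for tamoxifen in WT, 32 for treated Dnm2 S619L/+, 0 for the interaction and 0 for tamoxifen in Bin1 mck-/-. Among the members named in the report it ended the calls of Ndufa12, Ndufs4, Ndufaf4, Cox7a2 and Atp5s for tamoxifen in Dnm2 S619L/+.

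Leaving out 1 mouse at a time gave 6 to 13 for Dnm2 S619L/+ against WT, 53 to 75 for tamoxifen in WT, 0 to 17 for tamoxifen in Dnm2 S619L/+, 19 to 45 for treated Dnm2 S619L/+, 0 to 2 for Bin1 mck-/- against WT, 0 to 2 for tamoxifen in Bin1 mck-/-, 0 to 4 for treated Bin1 mck-/-, 0 to 1 for the difference in disease effect and 0 to 16 for that in tamoxifen effect. The interaction stayed at 0. The median of the members for tamoxifen in WT ran from -0.57 to -0.44. With 4 mice a group, changes smaller than the spread between mice were not detectable.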

Other observations

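Fiber-type genes were not part of the members' comparisons. In Dnm2 S619L/+ placebo mice 6 of 10 slow fiber genes rose and 1 fell (median log2 fold change 1.38), and 2 of 12 fast fiber genes fell (median -0.29), whereas with tamoxifen in WT mice 1 slow fiber gene rose and 2 fast fiber genes fell (median -0.42). In Bin1 mck-/- placebo mice 3 of 12 fast fiber genes fell (median -0.44), and in Bin1 mck-/- tamoxifen mice, against Bin1 mck-/- placebo mice, 3 rose (median 0.56): the calcium buffer Pvalb (1.33, adjusted p = 0.0233), the actin cross-linker of fast fibers Actn3 (1.05, adjusted p = 0.0305) and the thick-filament protein Mybpc2 (0.99, adjusted p = 0.0365).

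Genes of other cells moved in the diseased groups and also with tamoxifen in WT mice. Macrophage and leukocyte genes rose in 5 of 8 cases in Dnm2 S619L/+ placebo mice (median 1.37) and in 5 of 8 in Bin1 mck-/- placebo mice (median 1.82). With tamoxifen in WT mice 7 of 8 rose (median 1.84). Of all genes tested 21.9%, 2.61% and 27.7% passed in these comparisons, in that order. Endothelial genes fell in 4 of 6 cases in Dnm2 S619L/+ placebo mice (median -0.99) and in 0 in Bin1 mck-/- placebo mice in edgeR (1 at an unadjusted p under 0.05, median -0.25). Adipocyte genes rose in 2 of 5 tested cases in Bin1 mck-/- placebo mice (median 3.13) and 1 of 5 fell with tamoxifen there. Of 6 erythroid genes 1 fell in Dnm2 S619L/+ placebo mice and 1 rose with tamoxifen in WT mice.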
